A study of Rattus norvegicus with 10 samples.

Results

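The mammary tumours of rats whose mothers ate the control diet are described here without any comparison of diets. They are the 5 tumours that the labels place in the maternal control diet group, out of 10 tumours in the series. Sprague-Dawley dams ate this diet on gestational days 12 to 20 and again on days 1 to 21 after birth, and their daughters kept eating it after weaning. At 3 weeks of age each daughter was injected once into the peritoneum with N-methyl-N-nitrosourea at 50 mg/kg, an alkylating carcinogen that induces mammary tumours in rats. The tumours, of tubular or papillary form, were taken from animals of 110 days, so every tumour here carries the same carcinogen exposure and no untreated mammary gland serves as a baseline. From each tumour 200 ng of total RNA was labelled with the dye Cy3 and hybridised to a whole rat genome oligonucleotide array, and the tumours are written CD1 to CD5. The labels do not say whether they came from separate dams or litters.

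A level is the log2 of a probe's background-subtracted signal minus the 75th percentile of its array, so 0 is the 75th percentile and 1 unit is 2-fold. Of 41012 probes, 17231 (42.0%) were well above background on all 5 arrays, and 17355 on none. After 15 of them were left out because their only spot on an array carried an outlier mark, the remaining probes stood for 14642 genes, and 7507 of these had a gene symbol. That 75th percentile was 85.0 signal units in CD3 and between 188 and 226 in the other tumours, and arrays had 18579 to 21451 probes well above background. CD3 and CD5 shared a slide, CD1 and CD4 shared another, and CD2 was alone on its slide. A gene that fell to background in any tumour is outside all rankings below. The tissue is bulk, so fewer cells of a type and less RNA per cell cannot be told apart.

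A mammary tumour mixes luminal epithelial cells, which line the ducts and can make milk, with contractile myoepithelial cells, matrix-forming fibroblasts, vessels and immune cells. Milk genes are driven in the gland by prolactin through the transcription factor Stat5, which binds paired TTC and GAA letters. Genes of cell division are switched on together as cells enter mitosis, and many of their promoters hold CCAAT boxes, the site of the factor NF-Y. Genes of protein synthesis, splicing and respiration run in every cell and often start in CpG-rich promoters.

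The promoter stretches below show these features in genes that the rankings turn on. They come from RefSeq on the GRCr8 assembly, are written from 5′ to 3′ in the direction of the gene, and end at the base before its start. The casein pair shows the TTCNNNGAA letters in capitals. The alpha-S1 casein gene Csn1s1 was among the most variable genes, while the beta-casein gene Csn2, named although it was not measured on all arrays, is shown beside it.

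Csn1s1, chr14:20638850-20638969, minus strand: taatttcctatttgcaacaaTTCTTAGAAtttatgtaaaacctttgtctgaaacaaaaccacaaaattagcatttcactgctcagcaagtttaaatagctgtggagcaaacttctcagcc
Csn2, chr14:20601704-20601823, plus strand: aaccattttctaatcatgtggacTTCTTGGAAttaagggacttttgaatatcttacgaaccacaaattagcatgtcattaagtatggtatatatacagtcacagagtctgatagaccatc

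Positions count back from the start, with -1 the base before it. The TTCNNNGAA match begins at -100 in Csn1s1 and at -97 in Csn2. These letters read the same on both strands. In windows of 300 bases, from 250 before to 50 after the start, they occurred in 7.77% of 27456 RefSeq promoters, in 6.21% of the 6211 promoters matched to measured genes and in 1 of the 6 measured milk protein genes. A pair of matrix metalloproteinase genes of the variable set are shown for TGANTCA, the letters bound by the AP-1 factors Fos and Jun, and for the TATA box.

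Mmp3, chr8:12925161-12925280, plus strand: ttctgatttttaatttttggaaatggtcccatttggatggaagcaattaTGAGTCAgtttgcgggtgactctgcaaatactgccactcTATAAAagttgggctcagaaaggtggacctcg
Mmp13, chr8:12782709-12782828, plus strand: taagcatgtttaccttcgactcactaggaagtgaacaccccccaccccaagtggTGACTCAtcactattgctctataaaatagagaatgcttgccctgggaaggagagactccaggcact

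Capitals mark TGANTCA, which begins at -71 in Mmp3 and at -66 in Mmp13, and TATAAA, which begins at -32 in Mmp3. TATAAA was searched on the gene's strand only, from -40 to -15, and the tataaa letters of Mmp13 lie upstream of that window. The TGANTCA letters, which read the same on both strands, were present in 4 of 18 promoters of the most variable genes (22.2%), in 4.60% of promoters of measured genes and in 6.52% of all promoters. In the most variable 10% of genes they were in 38 promoters (6.54%), close to the share of all promoters, and in the least variable 10% in 27 (3.57%). The marked motifs do not overlap. Cell division genes that varied together across the tumours are shown for the CCAAT box, read on either strand (ATTGG on the other).

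Ccnb1, chr2:33655226-33655365, minus strand: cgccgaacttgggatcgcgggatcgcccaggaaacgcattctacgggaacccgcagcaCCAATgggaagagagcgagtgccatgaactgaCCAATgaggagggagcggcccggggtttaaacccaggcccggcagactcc
Ccnb2, chr8:79981659-79981798, minus strand: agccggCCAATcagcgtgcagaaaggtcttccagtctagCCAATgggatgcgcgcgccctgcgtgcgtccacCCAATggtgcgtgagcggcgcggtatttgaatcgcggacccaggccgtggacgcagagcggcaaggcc
Cdk1, chr20:19265153-19265292, plus strand: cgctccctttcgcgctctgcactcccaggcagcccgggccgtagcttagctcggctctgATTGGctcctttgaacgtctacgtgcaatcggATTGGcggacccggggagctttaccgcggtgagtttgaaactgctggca

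The boxes begin at -82 and -50 in Ccnb1, at -134, -101 and -68 in Ccnb2, and at -81 and -49 in Cdk1. A CCAAT box lay in 12 of the 17 cell cycle genes with a promoter entry (70.6%), against 36.4% of promoters of measured genes and 34.6% of all promoters. The last pair sets a stable gene beside a variable gene, with CpG dinucleotides in capitals.

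Zmynd19, chr3:28156194-28156313, plus strand: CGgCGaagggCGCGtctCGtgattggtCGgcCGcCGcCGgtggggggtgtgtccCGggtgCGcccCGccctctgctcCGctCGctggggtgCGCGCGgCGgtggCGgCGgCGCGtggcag
Clca1, chr2:236624715-236624834, minus strand: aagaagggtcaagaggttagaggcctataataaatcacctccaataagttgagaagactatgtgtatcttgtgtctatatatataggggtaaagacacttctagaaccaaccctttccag

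The Zmynd19 stretch holds 22 CpGs and the Clca1 stretch 0. Over the whole window the median number of CpGs was 27 in the 17 matched promoters of the most stable genes, 5.5 in the 18 of the most variable genes and 21 in those of all measured genes. At most 6 CpGs were found in 11 of the 18 promoters of the most variable genes (61.1%), in 180 (31.0%) of the promoters of the most variable 10% of genes, in 46 (6.08%) of the least variable 10% and in 11.0% of all measured genes. TATAAA was in 31 promoters (5.34%) of the most variable 10% and in 1 (0.132%) of the least variable 10%, against 1.34% of measured genes. These matches describe letters and were not tested for binding.

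Between the 5 tumours the median SD of a gene was 0.284 log2 units, and it ran from 0.113 at its 5th percentile to 0.727 at its 95th. The highest tumour exceeded the lowest by a median of 1.63-fold. For 3703 genes (25.3%) that range was over 2-fold, for 56 genes it was over 10-fold, and for 1209 genes (8.26%) it was under 1.25-fold. An SD above 1 was found for 232 genes (1.58%), 131 of them with a symbol. The median SD changed little with level, from 0.333 in the second decile of level to 0.253 in the eighth.

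The error of the arrays themselves was read from 133 measured probes that are printed 10 times on each array. Their median SD between replicate spots of an array was 0.0786, and their median SD between tumours was 0.319, a median ratio of 3.63. The SD between tumours was the larger in 130 of the 133. Of all measured genes 216 (1.48%) had an SD between tumours below 0.0786. For these the spread between tumours was no larger than that between spots of 1 array. Spots of 1 array leave out error between arrays. The error that the extraction gives for each spot was larger, with a median of 0.1485. By it, 2088 genes (14.3%) had an SD between tumours below their own error.

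Pairs of tumours had Pearson correlations across genes, which are not independent replicates, of 0.943 (CD2 with CD3) to 0.981 (CD1 with CD4, on 1 slide). Between CD2 and CD3 2030 genes differed over 2-fold, and between CD1 and CD4 459 did. CD3 was the highest tumour for 33.5% of all genes and CD2 the lowest for 33.3%.

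**Figure D1:**
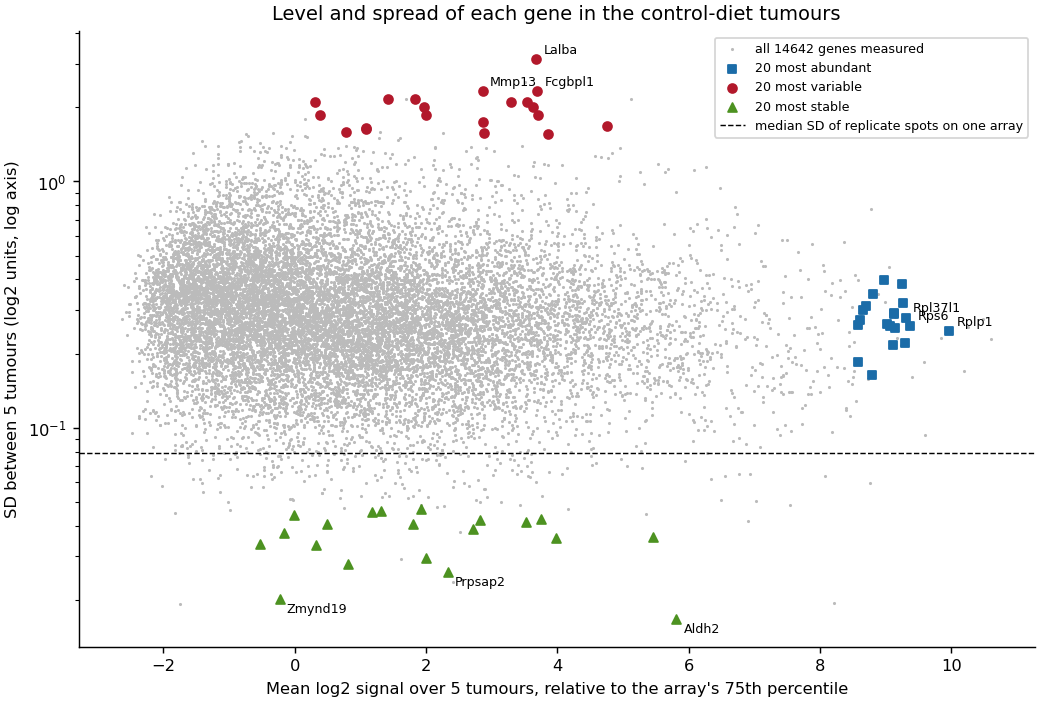
Mean level (x axis, log2 signal relative to the array's 75th percentile) against SD between the 5 tumours (y axis, log2 units, log axis) for all 14642 genes in grey, with the 20 most abundant (squares), most variable (circles) and most stable (triangles) genes that have a symbol. The dashed line is the median SD of replicate spots, 0.0786, and all 20 stable genes lie under it, while Lalba lies highest with an SD of 3.14.

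Among genes with a symbol, the most abundant transcripts were those of the ribosome. Of the 20 genes with a symbol and the highest mean level, 16 code for ribosomal proteins, and the others were Apoe, Ubb, Tpt1 and Krt18. Over all measured genes the first of the 20, Rplp1, ranked 5 and the last, Krt18, ranked 39. Genes without a symbol took the other ranks. Brightness depends on the probe as well as on the amount of transcript, so this order ranks probe signals. Ribosomal protein genes also have many processed copies in the genome, which a probe may not tell apart.

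Rplp1, an acidic protein of the ribosomal stalk, was the highest with 10.14 in CD1, 9.62 in CD2, 10.24 in CD3, 10 in CD4 and 9.83 in CD5 (mean 9.97 ± 0.25, SD, n = 5). CD3 was the highest tumour and CD2 the lowest, a pattern shared by much of this set, in which CD2 was lowest for 17 of 20 genes and CD3 or CD1 highest for 18. Among all genes CD2 was lowest for 33.3%, CD3 highest for 33.5% and CD1 highest for 18.3%. Rps6, the small-subunit protein phosphorylated on growth signals, followed with a mean of 9.38 ± 0.26, then Rpl37l1 with 9.30 ± 0.28, Rpl41 with 9.30 ± 0.22 and Rps23 with 9.26 ± 0.32 (SD, n = 5). Across the set the SD lay between 0.163 and 0.398, close to the 0.284 of a typical gene, and the range between tumours between 1.32-fold and 2.00-fold.

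Outside the ribosome, Apoe, the lipid-carrying apolipoprotein E made by macrophages among other cells, had levels of 9.17, 9.09, 9.59, 9.03 and 8.78 in CD1 to CD5 (mean 9.13 ± 0.29, SD, n = 5). CD3 was the highest. Ubb, a polyubiquitin gene, averaged 8.66 ± 0.30 and Tpt1, the translationally controlled tumour protein, 8.61 ± 0.27 (SD, n = 5). The luminal keratin Krt18 closed the set at 8.51, 8.24, 8.91, 8.46 and 8.76 (mean 8.58 ± 0.26, SD, n = 5), with Rpl32 next at 8.55. A second probe of Ubb gave a mean of 8.01 and second and further probes of Tpt1 gave 7.21 and 2.82, and the level given for a gene is that of its brightest probe. The brightest probe of all, for a transcript listed only as TC643456, had a mean of 10.61.

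Of 61 measured cytosolic ribosomal protein genes, 59 lay in the highest 10% of levels, against 10% of all genes by construction. In the lowest 10% of SDs there were 17 of the 61, against 10% of all genes, and in the highest 10% there was 1. That gene was Rps26, at 3.59, 3.66, 2.05, 3.35 and 2.16 in CD1 to CD5 (SD 0.79). CD3 and CD5, which shared a slide, were both low, and within slides the SD of Rps26 was 0.13. Whether the slide has a part in this was not tested. Of 48 ribosomal protein promoters with an entry, 32 (66.7%) had a run of at least 5 pyrimidines reaching within 2 bases of the start. The share was 19.9% in promoters of measured genes. Such a run can lie upstream of the start. The count is therefore not one of the transcribed tracts by which growth signals control translation of these genes.

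Other lists of basic cell functions were also rare among the variable genes. The most variable 10% of genes held 0 of 30 proteasome genes, 0 of 38 genes of the respiratory chain and ATP synthase, 0 of 26 spliceosome genes and 0 of 20 cytoskeleton genes. Their median SDs were 0.21 for the proteasome, 0.21 for the respiratory chain, 0.26 for the spliceosome and 0.28 for the cytoskeleton, the last close to the 0.284 of all genes and the ribosomal proteins at 0.21. Uqcrh, the hinge protein of respiratory complex III, was an even member at 6.34 ± 0.06, and Cox6a1, a subunit of cytochrome c oxidase, averaged 7.44 ± 0.16 (SD, n = 5). The widest of that list were Ndufv1, of complex I, and Atp5f1b, of ATP synthase, each with an SD of 0.42 and lowest in CD3. With the normexp background correction these counts rose to 3 for the proteasome, 4 for the respiratory chain and 7 for the cytoskeleton, and to 50 of 61 for the ribosomal proteins, while the spliceosome stayed at 0.

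**Figure D2:**
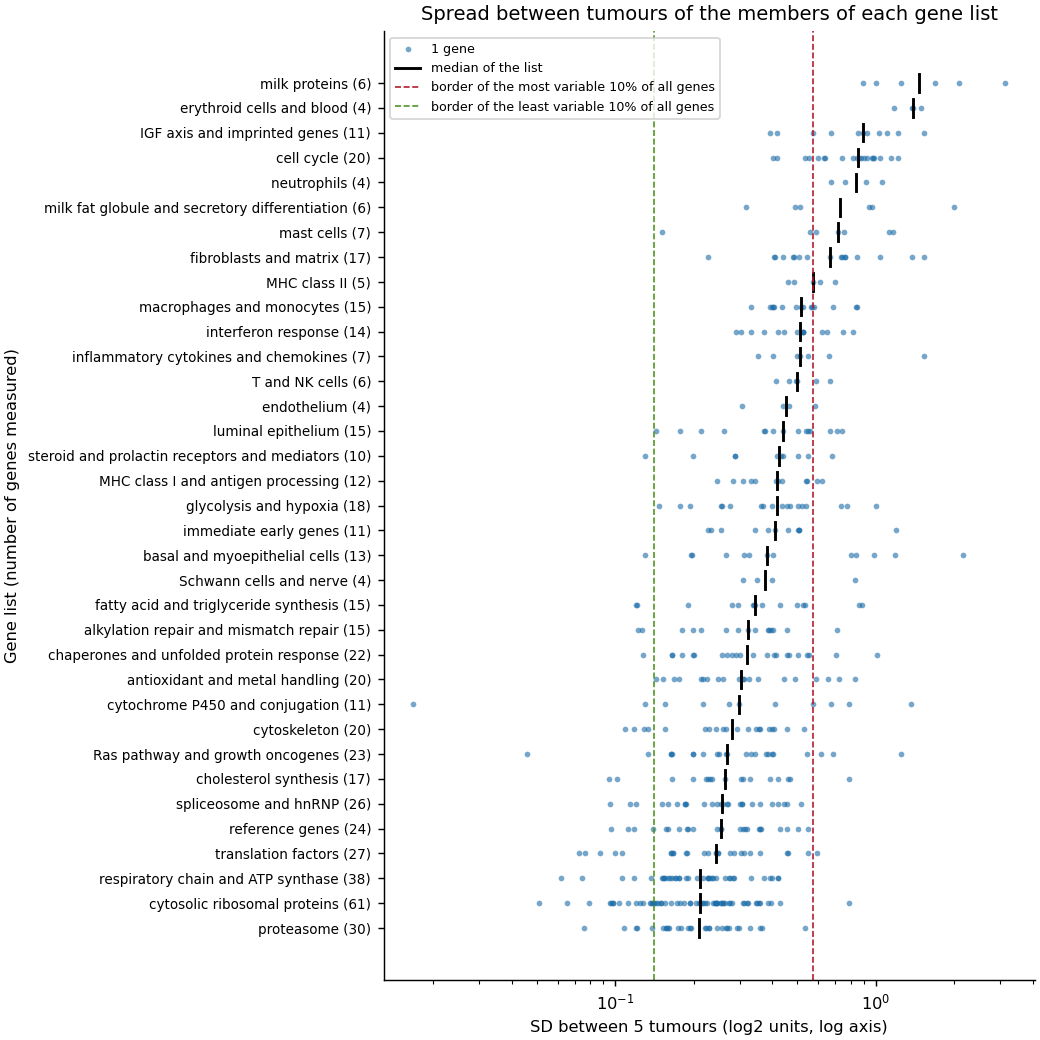
SD between the 5 tumours (x axis, log2 units, log axis) of each measured member (points) of the gene lists with at least 4 measured members, with the median of each list as a black bar. Dashed lines mark the lower border of the most variable 10% of all genes, 0.576, and the upper border of the least variable 10%, 0.140. Milk protein, erythroid, imprinted and cell cycle genes lie at the top and proteasome, ribosomal and respiratory genes at the bottom.

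The set of most variable genes is mixed and holds milk proteins, matrix proteases, mucus-associated, contractile and transport proteins. Lalba, alpha-lactalbumin, the milk protein that completes lactose synthase, had the largest SD, with 6.48 in CD1, 5.75 in CD2, -1.50 in CD3, 4.25 in CD4 and 3.40 in CD5 (mean 3.68 ± 3.14, SD, n = 5). The range from CD3 to CD1 was 252-fold, and without CD3 the SD was 1.40. Csn1s1, alpha-S1 casein, stood at 6.26, 3.69, 0.80, 4.62 and 2.33 (mean 3.54 ± 2.09, SD, n = 5), a 44.0-fold range. Csn3, kappa-casein, which stabilises the casein micelle, stood at 6.67, 5.53, 2.77, 5.62 and 3.21 (mean 4.76 ± 1.68, SD, n = 5). All of these milk genes were highest in CD1 and lowest in CD3, with CD5 the next lowest.

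All 6 measured milk protein genes lay in the most variable 10%, against 10% of all genes, and 5 had an SD above 1, against 1.58% of all genes. Mfge8, lactadherin of the milk fat globule, had 5.94, 5.15, 3.74, 5.80 and 4.04 in CD1 to CD5 (SD 1.00). Olah, the thioesterase that sets the chain length of milk fatty acids, had 3.12, 2.34, 0.66, 2.66 and 0.31 (SD 1.25). Both were highest in CD1 and low in CD3 and CD5. Spp1, osteopontin, which macrophages and tumour cells also secrete, ran differently with 0.91, 2.04, 2.79, 0.56 and 1.38 (SD 0.89), highest in CD3. The mean deviation of the list was 1.52 in CD1, 0.71 in CD2, -1.83 in CD3, 0.54 in CD4 and -0.93 in CD5. With the normexp background correction CD5 was the lowest at -1.76, next to -1.55 in CD3. The tumours CD3 and CD5 shared a slide, and within slides the list's median SD was 0.65 against 1.47 over all tumours, with 4 of 6 genes left in the most variable 10%. The part of the slide in this was not tested.

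Further milk genes were outside the rankings, and their names were chosen after their values were seen. Glycam1, a mucin-like milk protein, was at -0.20 in CD1, 2.40 in CD2 and 1.44 in CD4 and not well above background in CD3 and CD5. Wap, whey acidic protein, was well above background in CD1 (-0.41) and CD2 (-1.75) only. Csn2 was well above background in CD2 (-0.38), CD3 (-2.58), CD4 (-2.74) and CD5 (-2.07) and not in CD1, the tumour in which Csn1s1 and Csn3 were highest. Csn1s2a, Csn1s2b and Pip were not well above background on any array.

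Of 6 measured genes of the milk fat globule and secretory differentiation, 3 were lowest in CD3, against 21.1% of all genes. Their mean deviation was -0.95 in CD3 and between 0.04 and 0.40 in the others. Aqp5, a water channel of secretory epithelium, had 3.13, 5.28, 0.42, 4.08 and 5.22 (SD 2.00, and 1.02 without CD3). Stat5a, the transcription factor downstream of prolactin, had 5.76, 5.54, 5.65, 5.34 and 6.19 (mean 5.70 ± 0.32, SD, n = 5). Its SD was slightly above the 0.284 of a typical gene, with CD5 its highest and CD4 its lowest tumour. Tph1, which starts the synthesis of serotonin, was lowest in CD2 at 1.97 (SD 0.97), and Xdh, xanthine dehydrogenase of the milk fat globule membrane, in CD5 at -1.54 (SD 0.94).

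**Figure D3:**
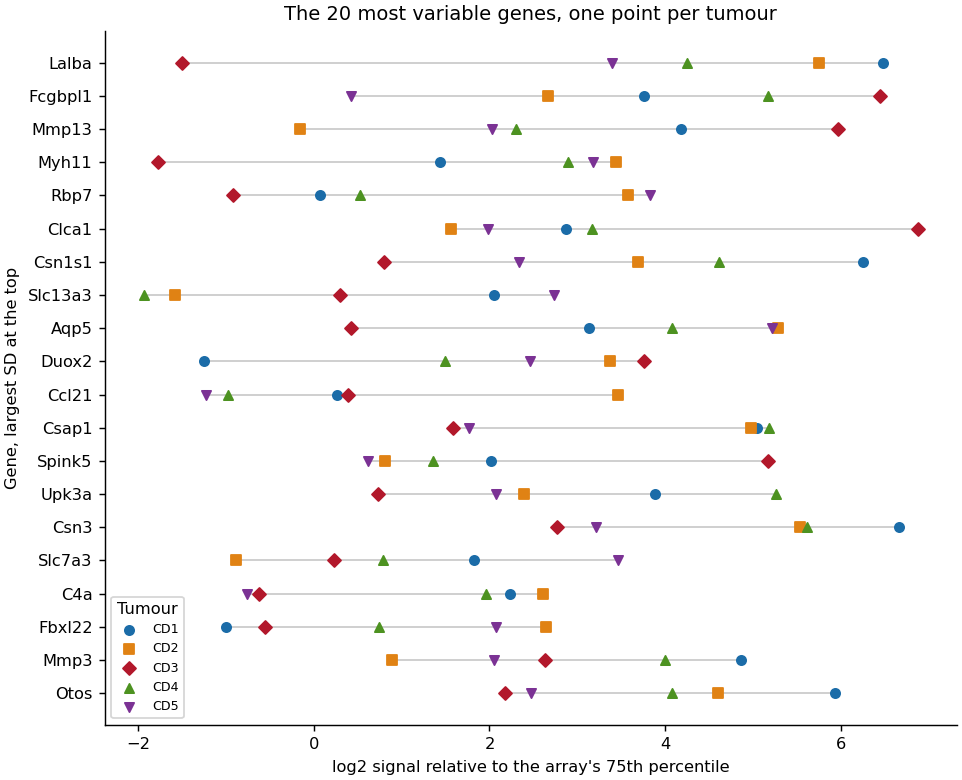
The level (x axis, log2 signal relative to the array's 75th percentile) of each of the 20 genes with the largest SD, with a point per tumour and a grey line over the range. CD3 (diamonds) is at an end of the line for 14 of 20 genes, against 54.5% of all genes. Clca1 and Spink5 show CD3 far above the other 4 tumours.

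CD3 was the highest or lowest tumour for 14 of the 20 most variable genes (70%), against 54.5% of all genes. In wider sets the share was near that of all genes, at 57.8% of the highest 5% of SDs. Of the 232 genes with an SD above 1 it was 52.2%. CD3 was the highest by far for Clca1, a secreted mucus-associated protein of goblet cells, with 2.87 in CD1, 1.56 in CD2, 6.88 in CD3, 3.17 in CD4 and 1.98 in CD5. CD3 exceeded the next tumour by 13.1-fold, and without it the SD fell from 2.11 to 0.749. Spink5, an inhibitor of serine proteases of stratified epithelium, behaved alike with 2.02, 0.81, 5.17, 1.36 and 0.61, and its SD fell from 1.86 to 0.630. A second Spink5 probe gave 0.75, 0.30, 4.19, 0.69 and -0.40, again highest in CD3 by several units. Fcgbpl1, named for its likeness to a mucus protein that binds immunoglobulin Fc, was highest in CD3 as well, with 3.76, 2.66, 6.45, 5.17 and 0.42 (SD 2.32). None of the 8 keratinised epithelium genes on the array was measured in all tumours.

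The collagenase Mmp13 had the third-largest SD of the genes with a symbol, with 4.18, -0.16, 5.97, 2.30 and 2.02 in CD1 to CD5 (mean 2.86 ± 2.32, SD, n = 5), a 69.9-fold range with CD3 highest and CD2 lowest. Mmp3, stromelysin 1, had 4.87, 0.89, 2.63, 4.00 and 2.05 (SD 1.58), also lowest in CD2 but highest in CD1. Both degrade extracellular matrix. The chemokine Ccl21, which draws lymphocytes into lymphoid tissue, was high in a single tumour, CD2, at 3.46 against -1.23 to 0.38 in the others, and its SD fell from 1.87 to 0.831 without CD2. Duox2, an oxidase that makes hydrogen peroxide at epithelial surfaces, was low in CD1 alone at -1.25, against 1.50 to 3.76, and its SD fell from 2.00 to 1.01 without CD1.

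Some of these genes split the tumours by slide. Csap1, the common salivary protein 1, had 5.04, 4.98, 1.59, 5.18 and 1.76 in CD1 to CD5, low in CD3 and CD5 and close together in the other tumours. Its SD of 1.86 fell to 0.113 within slides. C4a, a complement component, had 2.24, 2.61, -0.63, 1.96 and -0.76, with the same tumours low. With 3 slides and 5 tumours the slide and the tumours on it cannot be told apart here.

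The rest of the variable set covered transporters, contractile and other proteins. Slc13a3, a sodium-dependent dicarboxylate carrier, was low in CD2 (-1.59) and CD4 (-1.94) and high in CD1 (2.05) and CD5 (2.73), and Slc7a3, a cationic amino acid transporter, was also highest in CD5 (3.47) and lowest in CD2 (-0.88). Rbp7, a retinol-binding protein, was high in CD2 (3.58) and CD5 (3.83) and between -0.93 and 0.53 in the others. Upk3a, a uroplakin of the urinary tract lining, was highest in CD4 (5.27) and lowest in CD3 (0.73). The F-box gene Fbxl22 ran from -1.01 in CD1 to 2.64 in CD2, and Otos, otospiralin, from 2.18 in CD3 to 5.94 in CD1. Otos closed the set with an SD of 1.56, next to Nrgn with 1.56.

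Genes with more than 1 measured probe allow a look at spread that the ranking did not use, although both probes read the same RNA. Of 114 genes in the most variable 10% with another probe, 74 (64.9%) had at least 1 such probe in the same 10%, against 7.55% of the 2132 genes with another probe. Of 258 genes in the least variable 10%, 58 (22.5%) did, against 14.4%. Agreement between probes was thus commoner for large spread than for small spread, each read against its own background.

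Division genes varied as a group. Of 20 measured cell cycle genes, 16 lay in the most variable 10%, and CD3 was the lowest tumour for 18 and CD5 the highest for 15, against 21.1% and 15.9% of all genes. Their mean deviation was 0.71 in CD1, 0.10 in CD2, -1.03 in CD3, -0.53 in CD4 and 0.75 in CD5. Ccnb1, cyclin B1, which starts mitosis with Cdk1, had 1.18, 0.49, -1.71, -0.44 and 1.11 (SD 1.21), a 7.38-fold range. Its partner kinase Cdk1 had 4.16, 3.60, 2.40, 2.68 and 4.38 (SD 0.88), in the same order at its low end. The cyclin Ccnb2 had 0.84, 0.44, -1.68, -0.83 and 0.90 (SD 1.14), and Ube2c, which marks mitotic cyclins for destruction, 1.29, 0.86, -0.91, -0.25 and 1.50 (SD 1.04). CD5 and CD3, which shared a slide, lay at opposite ends, so a large SD within slides follows from this order of the tumours. Within slides 19 of the 20 genes were in the most variable 10%. A part of the slide in these levels was not tested. The count of 16 fell to 2 with the normexp background correction and to 11 with the values of the series matrix, and CD3 stayed the lowest tumour under both.

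Blood and immune cell genes had their own orders of the tumours. All 4 measured erythroid genes were in the most variable 10% and all were highest in CD3 and lowest in CD4, against 33.5% and 20.2% of all genes. Hbb-b1, a beta-globin gene, had 5.63, 6.06, 7.17, 4.26 and 4.57 in CD1 to CD5 (SD 1.17), and Alas2, the first enzyme of heme synthesis in red cell precursors, had -0.91, 0.24, 1.16, -2.04 and -1.88 (SD 1.38). Of 7 measured mast cell genes 5 were in that 10%, and CD5 was the highest tumour for 6, against 15.9% of all genes. The mast cell chymase Cma1 had 4.37, 3.86, 2.57, 2.96 and 5.51 (SD 1.17), while the tryptase Tpsab1 was even at 2.03 ± 0.15 (SD, n = 5). Without CD5 the mast cell count fell to 2 of 7. All 4 measured neutrophil genes were in that 10%, a count that fell to 1 without CD1. With the normexp background correction both counts fell to 1. The calprotectin subunits S100a8 and S100a9 were lowest in CD1 at -1.84 and -1.06 and highest in CD3 at 0.70 and 1.28. The other members had different orders, with Lcn2, lipocalin 2, highest in CD1 and lowest in CD5 at 5.27, and the defensin Np4 highest in CD2 at 0.50, where the mean of the list was also highest.

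Macrophage genes were less spread, with 4 of 15 in the most variable 10%. C1qb, a chain of the complement C1q complex, had 4.97, 5.64, 5.96, 4.95 and 5.37 (SD 0.43), and Lyz2, lysozyme, 2.96, 4.89, 4.10, 2.83 and 3.78 (SD 0.85). For both CD2 and CD3 were the high tumours and CD1 and CD4 the low ones, and the mean deviation of the list was -0.32, 0.31, 0.40, -0.32 and -0.07 in CD1 to CD5. Other members ran otherwise: Cd14, a receptor for bacterial lipopolysaccharide, was highest in CD1 (3.92) and CD4 (3.77), and Lgals3, galectin 3, was lowest in CD2 (5.71). The highest tumour of the list was the same in 6 of 10 alternatives. For the class II antigen-presenting genes, 3 of 5 in that 10%, it was -0.32, 0.44, 0.63, -0.48 and -0.27. Cd74, the invariant chain of class II, had 5.60, 6.41, 6.38, 5.39 and 5.57 (SD 0.49). The T cell receptor chain Cd3d averaged 2.28 ± 0.46 (SD, n = 5), with CD5 lowest at 1.59. Counts for these lists moved between settings, from 2 to 9 for macrophages and from 0 to 5 for class II genes.

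Stromal genes were in between. Of 17 measured fibroblast and matrix genes 9 were in the most variable 10%, 4 with no filter on dim probes and 12 with the series matrix, and CD4 was the lowest tumour for 8, against 20.2% of all genes. Dcn, the small collagen-binding proteoglycan decorin, had 1.46, 3.07, 3.67, 0.16 and 2.33 in CD1 to CD5 (SD 1.38). Postn, periostin, had 1.99, 2.44, 2.92, 0.52 and 3.13 (SD 1.04), and Col1a2, a chain of type I collagen, 5.06, 5.93, 6.22, 4.75 and 6.14 (SD 0.67). CD4 was the lowest tumour for these and CD1 the next lowest. Sparc, a collagen-binding matrix protein, and Col4a1, of basement membrane, were lowest in CD3 instead, at 5.43 and 4.67, beside 6.20 and 5.60 in CD4. Of the adipocyte genes on the array 3 of 14 were measured in all tumours, and Cfd, adipsin, stood out in CD2 at 4.95 against 1.92 to 2.49.

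A mixed list of the insulin-like growth factor axis and imprinted loci had 9 of 11 measured genes in the most variable 10%. Part of these are binding proteins that are not imprinted. Igf2, the imprinted fetal growth factor, had -0.06, -1.24, 2.30, 1.04 and -1.26 in CD1 to CD5 (SD 1.53). H19, the noncoding RNA expressed from the other parental copy of the same locus, had 0.16, 0.32, 2.09, 0.31 and -1.35 (SD 1.22). Both were highest in CD3 and lowest in CD5, though CD4 and CD2 took different places in between. The binding protein Igfbp3 was also highest in CD3, at 5.58 against 3.33 to 4.75, while Igfbp4 was highest in CD5 at 5.34 and lowest in CD1 at 2.77. Igf2r, the receptor that clears Igf2, was outside the variable 10% at 4.90 ± 0.39 (SD, n = 5).

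**Figure D4:**
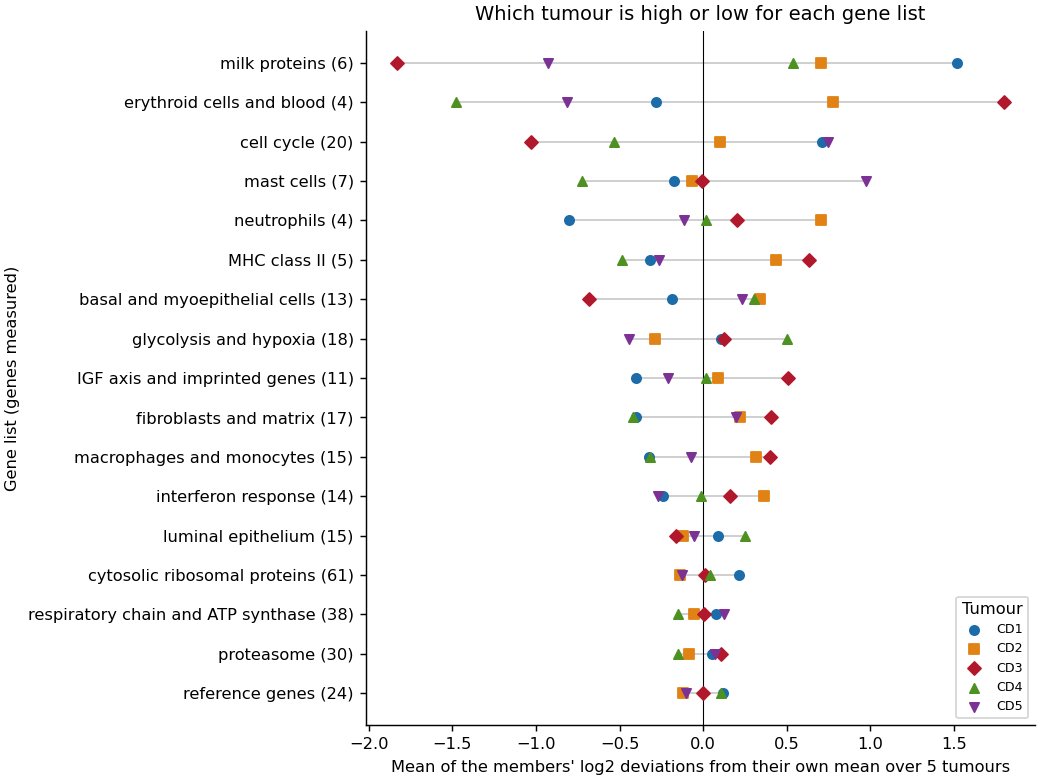
Mean deviation of the measured members of each list from their own mean over the 5 tumours (x axis, log2 units), with a point per tumour. CD3 (diamonds) is lowest for milk protein (-1.83), cell cycle (-1.03) and basal genes (-0.69) and highest for erythroid genes (1.80), although with the normexp background correction, not plotted, CD5 is lowest for milk protein (-1.76, CD3 -1.55) and basal genes (-0.84, CD3 -0.47).

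Defining markers of both layers of mammary epithelium were present in every tumour. Of 18 luminal genes on the array 15 were measured in all tumours, 8 of them in the highest 10% of levels and 3 in the most variable 10%, a count that ran from 0 with no filter on dim probes to 7 with normexp. Krt19, a luminal keratin, had 6.58, 6.42, 5.18, 7.07 and 6.05 (SD 0.71), lowest in CD3 and highest in CD4. Areg, the growth factor amphiregulin, averaged 6.18 ± 0.44 (SD, n = 5). Of 14 basal and myoepithelial genes 13 were measured, and 5 were in the most variable 10%. Krt14, a basal keratin, averaged 4.68 ± 0.38 and Lgals7, galectin 7 of stratified epithelium, 7.34 ± 0.20 (SD, n = 5).

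Other basal and myoepithelial genes spread more widely. Krt15, a basal keratin, had 4.60, 5.87, 4.12, 6.57 and 5.42 in CD1 to CD5 (SD 0.98), highest in CD4 and lowest in CD3. Myh11, smooth muscle myosin, had 1.44, 3.44, -1.78, 2.89 and 3.18 in CD1 to CD5 (mean 1.84 ± 2.16, SD, n = 5). CD3 was far below the others and without it the SD was 0.896. A second Myh11 probe ran from -1.69 in CD3 to 1.91 in CD2 (SD 1.34), with the same highest and lowest tumours. Cnn1, calponin, had 0.02, 2.01, -0.67, 1.22 and 1.91 (SD 1.18), again lowest in CD3.

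Hormone receptors and their mediators had a median SD of 0.43, beside 0.284 for all genes, and 1 of 10 measured genes was in the most variable 10% (0 to 2 under the alternatives), the share of all genes. Pgr, the progesterone receptor, had 1.24, 1.42, 0.79, 1.29 and 1.54 (mean 1.26 ± 0.29, SD, n = 5), and Prlr, the prolactin receptor, 2.78, 2.52, 2.93, 3.01 and 2.66 (mean 2.78 ± 0.20, SD, n = 5). The range between tumours was 1.69-fold for Pgr and 1.41-fold for Prlr, beside 252-fold for Lalba. Cited1, a transcriptional coactivator of the mammary epithelium, was bright at 8.06 ± 0.43, and Wnt4, a mediator of progesterone, averaged 1.82 ± 0.50 (SD, n = 5). The growth factor receptor Egfr averaged 2.61 ± 0.13, Igf1r -0.85 ± 0.42 and Ghr, the growth hormone receptor, -1.62 ± 0.29 (SD, n = 5). A second, dimmer Egfr probe had a larger SD of 0.42. Fkbp5, a target of steroid receptors, averaged 1.07 ± 0.55 (SD, n = 5). Erbb2, the receptor kinase of the epidermal growth factor family, was the variable member with 1.26, 1.57, 0.35, 1.98 and 0.58 (SD 0.68), low in CD3 and CD5. The estrogen receptor Esr1 was well above background in CD1 and CD4 only.

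Among growth control genes, Cdkn2a, which codes for the cell cycle inhibitor p16 and for Arf, was the most variable with 1.01, 0.23, 2.07, 1.98 and -0.90 (SD 1.25). CD3 and CD4, high for Cdkn2a, were the low tumours for the cell cycle genes. Hras, the gene that nitrosourea tumours of the rat often carry in mutated form, was even at 4.87, 4.53, 4.95, 4.69 and 4.69 (mean 4.75 ± 0.16, SD, n = 5); the arrays read its level and not its sequence. Ccnd1, cyclin D1, was bright at 7.01 ± 0.61 (SD, n = 5).

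Genes of glycolysis and hypoxia were highest in CD4 for 13 of 18 members, against 14.5% of all genes, and lowest in CD5 for 11, against 13.9% of all genes, with 3 of 18 in the most variable 10%. Adm, adrenomedullin, a hypoxia-induced vasodilator, had 1.16, 0.53, 1.94, 2.74 and 0.34 (SD 1.00). Vegfa, the vascular growth factor, had 4.09, 2.71, 4.14, 4.61 and 3.21 (SD 0.77), so CD4 was highest for both and CD2 and CD5 low. A second, dimmer Vegfa probe had an SD of only 0.28, with the same highest and lowest tumours. The enzyme Eno1 ran more narrowly, at 7.70 ± 0.44 (SD, n = 5). The count of 3 rose to 12 with the normexp background correction.

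Among chaperones, the brightest probe of Hsp90aa1 was high in CD3 at 6.96 against 5.57 to 5.92. Hspb1 was high in CD3 (4.05) and CD4 (4.16) and between 2.00 and 3.06 in the others. These genes help proteins fold under stress. Other probes of Hsp90aa1 set CD3 less apart. The next brightest read 5.66 in CD3 and 5.23 in CD1, and another was also highest in CD3, at 1.95. A further probe was highest in CD1 at 2.08, with 1.99 in CD3. The chemokine Ccl5 ran from -2.30 in CD4 to 1.24 in CD3 (SD 1.53), and the immediate early gene Atf3 from -0.38 in CD1 to 2.34 in CD2 (SD 1.20). The glutathione transferase Gsta4 was highest in CD3 at 3.24, against -0.23 to 1.04 in the others (SD 1.37), while its relative Gstp1 averaged 6.47 ± 0.22 (SD, n = 5). Of 15 fatty acid and triglyceride synthesis genes 2 were in the most variable 10%, the desaturase Fads1 (SD 0.88) and Thrsp (SD 0.86), and the median SD of the list was 0.35. Fasn, fatty acid synthase, averaged 5.41 ± 0.30 (SD, n = 5), while its second probe had an SD of 0.56. Of 17 cholesterol synthesis genes 1 was in that 10%, Lss (SD 0.79), and the median SD was 0.26. The repair genes Mgmt, which removes methyl groups of the kind nitrosourea adds to guanine, and Parp1 averaged 1.95 ± 0.40 and 3.35 ± 0.12 (SD, n = 5).

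The most stable genes were mixed in function and level. Their means ran from -0.53 to 5.81, with a median of 1.86 beside 0.52 for all genes. Aldh2, mitochondrial aldehyde dehydrogenase, had the smallest SD, with 5.84 in CD1, 5.82 in CD2, 5.79 in CD3, 5.81 in CD4 and 5.81 in CD5 (mean 5.81 ± 0.017, SD, n = 5). Its 5 tumours spanned 1.03-fold. Zmynd19, a zinc finger protein, averaged -0.23 ± 0.020, and Prpsap2, a partner of the enzyme that makes the nucleotide precursor PRPP, 2.33 ± 0.026 (SD, n = 5). Rab9a, a small GTPase of endosome to Golgi transport, averaged 0.81 ± 0.028 and the N-acetyltransferase Nat9 2.00 ± 0.030 (SD, n = 5). No tumour stood apart for these genes.

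Also in this set were, among others, Map7, Zc2hc1a, Pigp (of the synthesis of membrane anchors), Aamp, Cnst, the methionine aminopeptidase Metap2, Antkmt, the RNA-binding protein Elavl1, Cxxc1, Rtca, Stmp1, Ssr1, Tmco1 and the phosphatase Dusp22. Dusp22, the last of the 20, averaged 1.92 ± 0.047 (SD, n = 5), with Chmp2a next at an SD of 0.047. All 20 SDs were below the 0.0786 between replicate spots of 1 array, so the order within this set lies inside the measuring error. It also depended on the constant subtracted from each array. With the array median in place of the 75th percentile, or the 75th percentile of detected probes, 0 of the 20 stayed among the 20 most stable, while their SDs lay between 0.078 and 0.140 and between 0.040 and 0.098. With the normexp background correction their SDs ran from 0.060 to 0.686, with a median of 0.468 at the 64.0th percentile of all genes, and with the series matrix from 0.035 to 0.216. Second probes of Cxxc1 and Tmco1 had SDs of 0.08 and 0.18.

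Genes in common use as references had a median SD of 0.25, beside 0.284 for all genes. Of 24 measured, 0 were in the most variable 10% (13 with the normexp background correction) and 4 in the least variable 10%, against 10% of all genes for each. Actb, beta-actin, had 8.32, 8.47, 8.57, 8.32 and 8.32 in CD1 to CD5 (mean 8.40 ± 0.12, SD, n = 5), with CD3 highest, and Rpl13a averaged 8.46 ± 0.11. These SDs were among the smallest of the list. Ywhaz (SD 0.16), Nono (0.16), Tfrc (0.18), Tbp (0.19), Sdha (0.19) and Gusb (0.20) followed.

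At the other end, Eef1a1, the elongation factor that brings aminoacyl-tRNA to the ribosome, had 6.73, 6.65, 5.63, 7.11 and 6.38 (mean 6.50 ± 0.55, SD, n = 5), a 2.78-fold range with CD3 lowest. Pgk1 (SD 0.50), Pgam1 (0.46) and Ldha (0.36) are glycolytic enzymes. Rplp0 (SD 0.43) was lowest in CD3 as well. Gapdh averaged 7.24 ± 0.25 (SD, n = 5), highest in CD4 at 7.56 and lowest in CD5 at 6.87, and another of its probes had an SD of 0.09. Hprt1 (SD 0.32), Ppia (0.32), B2m (0.31), Ubb (0.30), Rpl19 (0.25), Rps18 (0.25) and Tubb5 (0.36) lay between.

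**Figure D5:**
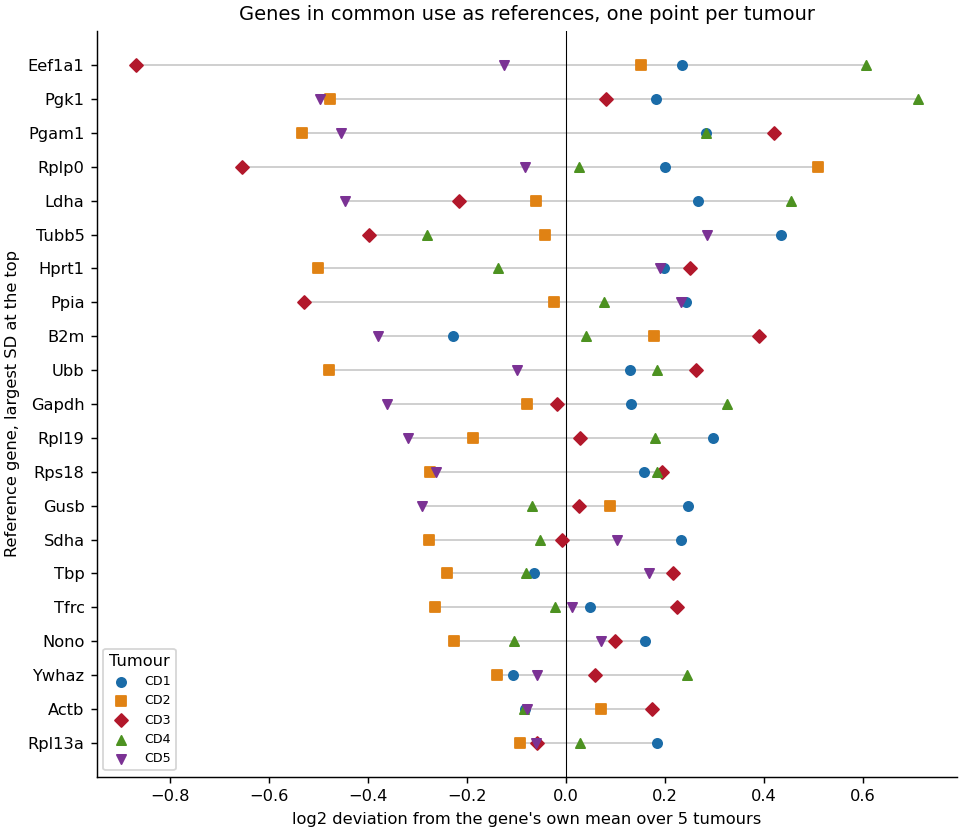
Deviation of each of 21 reference genes from its own mean over the 5 tumours (x axis, log2 units), with a point per tumour and genes ordered by SD. Eef1a1 at the top spans 2.78-fold with CD3 lowest, and Rpl13a and Actb at the bottom span 1.21-fold and 1.20-fold.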

How the data were processed

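Total RNA of 5 tumours was measured on 1-colour arrays, 1 array per tumour. Per the file headers, the deposited spot intensity values are background-subtracted processed signals from Feature Extraction 11.5.1.1 (the submitters' processing notes name version 15.5), not scaled between arrays. The deposited series matrix holds log2 values, read from the values as quantile-normalised median signals without background subtraction. Which tool made it is not stated in the sources. Its rows were matched to spots by their order, which gave a Spearman correlation of 1 with the median signals on all 5 arrays.

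Control spots and spots marked as outliers were left out, log2 processed signals were centred on each array's 75th percentile, and a probe's spots were averaged. Probes well above background on all 5 arrays were kept, and the probe of highest mean stands for a gene. Names came from RefSeq (GRCr8), which matched 17502 probes (42.7%). The array annotation is on the rn4 build, so positions are given only for promoters. The SD has n - 1 in the denominator. No groups were compared and no test was run. Within-slide SDs use 2 degrees of freedom. Slides were scanned separately, which leaves a slide and its scan inseparable. The number of arrays limits the precision.

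The text names the 20 genes with a symbol of highest mean, largest SD and smallest SD, up to 3 members of highest mean and 3 of largest SD of each of 39 lists, and all measured reference, milk protein and receptor genes. A few genes under this rule are not reported here, though counts over a list include them. Members, lists and promoter motifs were chosen with earlier results of these data known. Alternatives were other scalings, filters, background corrections, probe rules, the slide as a block and leaving out each tumour. The normexp alternative (limma 3.58.1, R 4.3.3, offset 50) used median spot signals, since the mean signals it was planned for were not used here. Python 3.11.15 and matplotlib 3.10.9 did the rest. The procedure was tested on simulated data.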

Additional observations from a re-analysis of the deposited data

Results flagged for a closer look

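In a group of 5, a highest or lowest value was singled out when its gap to the nearest tumour was over 0.71 of the whole range, which chance gives in about 1 of 20 groups. Of 296 results examined 10 passed, among them 8 of 257 named genes (3.11%), against 722 (4.93%) of all genes. CD3 was the odd tumour for 7 of the 10. It was also the highest or lowest tumour for 54.5% of all genes. The 722 genes were not split by tumour, so the 7 have no direct background. The 75th percentile of signal of CD3 was 85.0, with 188 the next. Its mean deviation for the milk fat globule and secretory differentiation genes was -0.95, with 0.04 the next. CD3 was low for Atp5f1b, a subunit of ATP synthase (3.04, next 3.78), for Col4a1, a chain of basement membrane collagen (4.67, next 5.48), and for Egfr (2.38, next 2.63). It was high for the brightest probe of Hsp90aa1 (6.96, next 5.92) and for the stable gene Elavl1 (0.56, next 0.49). Other Hsp90aa1 probes set CD3 less apart. The next brightest read 5.66 in CD3 and 5.23 in CD1, and another was highest in CD1 (2.08, CD3 1.99). CD2 was low for Areg (5.42, next 6.17) and high for the adipocyte gene Cfd (4.95, next 2.49). CD5 was high for Nfkbia, the inhibitor of NF-kB (3.42, next 2.61).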

How the results depend on the processing

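The order of the most abundant and most variable genes held better than that of the most stable. Of the 20 most abundant genes 15 to 20 were shared under the alternatives, fewest with the mean of a gene's probes. Of the 20 most variable, 16 to 20 were shared under other scalings, background corrections, probe rules, saturated probes left out and outlier marks ignored (the last chosen after seeing the data). They were 10 with probes well above background on at least 3 arrays, 5 with no filter on dim probes, 10 with the slide as a block, and 12 to 18 leaving out a tumour (12 without CD3). Of the 20 most stable, 0 were shared with the array median, 0 with the 75th percentile over detected probes, 5 with quantile normalization, 0 with normexp, 0 with the series matrix, 1 with the slide as a block and 5 to 8 leaving out a tumour. The median SD of 0.284 was 0.389 with normexp, 0.179 with the series matrix, 0.351 with no filter, 0.223 with the slide as a block and 0.253 to 0.295 leaving out a tumour. The count of genes with SD above 1, 232, was 72 with the series matrix, 548 with at least 3 arrays, 1598 with no filter and 211 to 303 leaving out a tumour. The 14642 genes measured were 36025 with no filter, and the looser filters add dim genes by construction. The other causes were not tested. The replicate spot error of 0.0786 was 0.146 by the extraction's error model, and 0.0747 to 0.0815 leaving out a tumour. The median of all genes shifted by 2.64 with the array median, -2.11 with the 75th percentile over detected probes, -0.20 with normexp and -0.18 with the series matrix. Relative to that shift, named means moved by over 1 SD for 154 of 257 genes with normexp, 145 with the series matrix, 52 with the mean of probes and at most 2 leaving out a tumour. Dim signal limits genes near background. No paired analysis was possible because no result comes from a comparison of groups.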

Other observations

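Probes left out because their only spot on an array carried an outlier mark include some that would have stood far apart. Dnajc9, chosen here after its values were seen, read 7.45 in CD5 and between -1.12 and -0.56 in the other tumours.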
